A study of Mus musculus with 4 samples.

Results

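The 45 genes described here encode the machinery that licenses origins of replication and copies DNA: origin licensing and helicase proteins, polymerases, the sliding clamp and its loader, deoxynucleotide enzymes, maintenance methylation and chromatin assembly factors, and the cyclins and E2F factors of S-phase entry. They were taken by symbol from a fixed list of 45, and all 45 were found among the 55536 genes of the tables. The samples were macrophages, phagocytes that differentiate in culture from bone marrow of C57BL/6J mice. All 4 libraries of polyadenylated RNA formed 1 group, cells given 100 ng/mL of a stimulus for 60 minutes. The labels call the stimulus lipid A, a ligand of Toll-like receptor 4, in one field and lipoprotein A in others, so it is not named further. The labels give no sex or age and no untreated group was analysed here, so the libraries can only be set against each other and no value measures a response to the stimulus. The libraries are numbered as biological replicates 1 to 4, but share 1 donor label, and no source states whether they are separate animals or cultures. P-values therefore speak for these libraries only, most of them against counting error alone, and the spread between libraries may be technical.

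Before S phase, the origin recognition complex, CDC6 and CDT1 load the MCM2 to MCM7 helicase onto DNA, and geminin blocks CDT1 afterwards. CDC45, MCM10 and the GINS complex then activate the helicase, polymerase alpha with primase starts each strand, and polymerases delta and epsilon extend it on the PCNA ring, which the RFC complex loads. Most of these genes are known E2F targets that are repressed in resting cells. Macrophages grown from marrow divide in response to M-CSF and leave the cycle as they mature or meet bacterial products.

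Replication transcripts were present in all 4 libraries and stood far higher in replicate 1 than elsewhere. The summed level of the 45 genes was 1873 TPM in replicate 1, 509.6 TPM in replicate 2, 846.7 TPM in replicate 3 and 604.8 TPM in replicate 4, where TPM is a relative transcript level corrected for transcript length. The median gene stood at 19.53, 4.85, 9.00 and 4.36 TPM in the same order. Replicate 1 thus lay above the other 3, and replicate 3 lay between replicate 1 and the low pair of replicates 2 and 4. In a bulk sample, fewer cells of a type and less RNA per cell cannot be told apart.

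Differences between libraries were counted as follows. A gene was called variable when its counts differed beyond counting noise in a chi-square test over the 4 libraries, with an adjusted p-value under 0.05 over all genes tested, and its highest and lowest scaled counts differed at least 2-fold (the fold range). Of the 45 genes, all of which reached the mean count of 10 needed for the test, 38 were called variable, beside 32.9% of the 12626 genes tested. The adjusted p was below 0.05 for all 45, the highest being 0.00493 for Rfc1, but 88.6% of all genes tested also passed on p alone, so the fold range carries the comparison. The median fold range of the 45 genes was 5.52, with extremes of 1.11 and 45.9, and that of all genes tested was 1.68. This test compares the 4 libraries and covers counting error only.

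The libraries ranked in 1 order for most of the genes. Replicate 1 was highest for 43 of 45 genes, beside 35.8% of all genes tested; the exceptions were Rfc1, highest in replicate 3, and Rfc2, highest in replicate 4 on scaled counts and in replicate 2 on TPM. Replicate 2 was lowest for 33 of them, beside 25.4%. The full order of replicates 1, 3, 4 and 2 from high to low was found for 28, beside 10.7%. In 28 genes replicate 1 was at least 2-fold above every other library, beside 4.79%. Replicate 1 was at least 2-fold above replicate 2 for 37 genes, beside 11.5%, with a median ratio of 5.52. Replicate 3 was at least 2-fold above replicate 4 for 14 genes, beside 6.19%, with a median ratio of 1.48.

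Much of the spread came with replicate 1. Without it, 21 of the 45 were called variable, beside 16.0% of genes, and the median fold range was 1.90, beside 1.38 for all genes tested. Replicate 3 was then the highest of the remaining 3 libraries for 38 of 45, beside 36.9% of genes. Replicate 1 also had the fewest gene counts, 26917324 beside up to 39438414 in replicate 4, and the largest share of counts on ribosomal RNA genes, 12.43% beside 3.426% to 7.279%. With ribosomal RNA genes left out of the library sizes, 38 genes were called variable, beside 33% of all genes tested, and 43 were highest in replicate 1. This moved the scaling by only -0.022 to 0.019 on the log2 scale. It could therefore hardly change these counts and says nothing about the ribosomal RNA difference itself. Whether RNA quality plays a part was not tested.

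**Figure D1:**
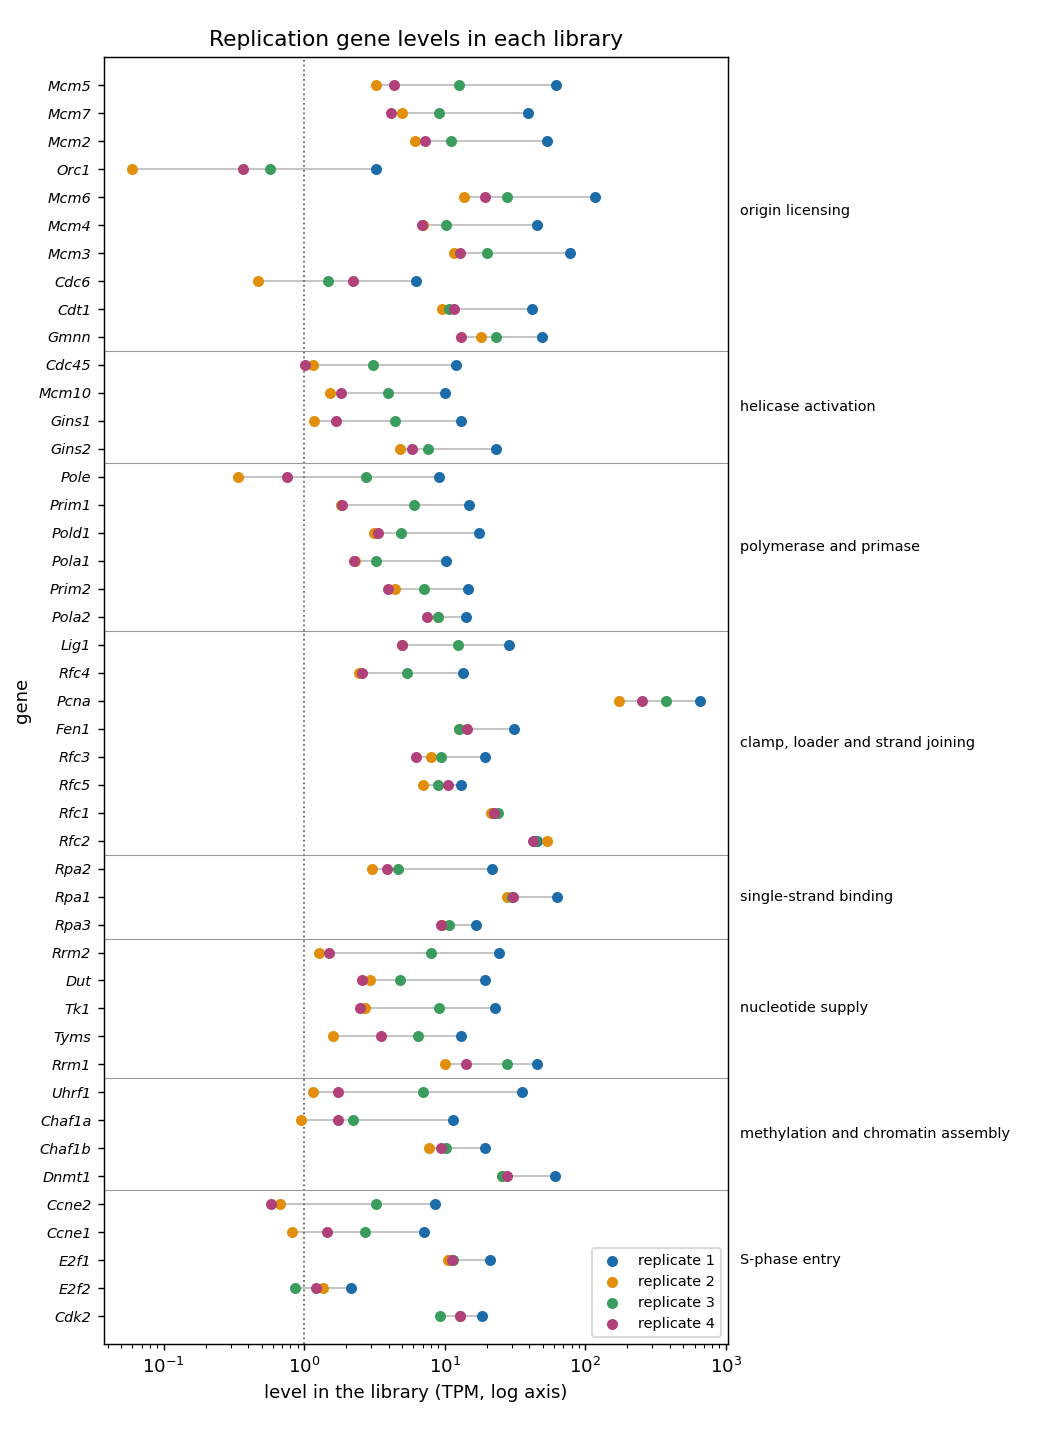
Level of each of the 45 replication genes in each of the 4 libraries, in TPM on a log axis, grouped by role and ordered within a role by the difference of replicate 1 from the gene's own mean. Points are single libraries, grey lines join the lowest and highest, and the dotted line marks 1 TPM; replicate 1 is the rightmost point for nearly every gene, with Rfc1 and Rfc2 as the exceptions.

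Short promoter stretches of 6 genes are shown because they hold an E2F motif, the element that these genes are best known for, and because their genes had the largest fold ranges among those with such a motif. They were read from RefSeq windows on build GRCm38.p6 (mm10) that run from 250 bases before to 50 bases after each annotated start. Capitals mark TTTCGCGC, TTTGGCGC or TTTCCCGC, or their reverse complements, which can overlap, and each stretch is written 5′ to 3′ on the strand of its gene.
Orc1 (chr4:108579416-108579445, plus strand): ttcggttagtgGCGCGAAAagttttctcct
Uhrf1 (chr17:56304108-56304155, plus strand): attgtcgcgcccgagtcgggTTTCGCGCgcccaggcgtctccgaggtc
Mcm5 (chr8:75109336-75109387, plus strand): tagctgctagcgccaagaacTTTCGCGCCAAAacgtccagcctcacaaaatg
Cdc6 (chr11:98907993-98908040, plus strand): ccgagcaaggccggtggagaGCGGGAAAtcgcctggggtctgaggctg
Mcm7 (chr5:138172030-138172059, minus strand): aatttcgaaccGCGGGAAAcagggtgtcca
Mcm6 (chr1:128359725-128359835, minus strand): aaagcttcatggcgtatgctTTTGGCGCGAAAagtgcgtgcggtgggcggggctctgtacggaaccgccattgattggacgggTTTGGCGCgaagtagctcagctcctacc

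In Mcm5 the end of a forward motif overlaps the beginning of a reverse motif, and in Mcm6 such an overlapping pair is followed by a further motif closer to the start. The motifs began 27 bases before the RefSeq start for Orc1, 185 for Uhrf1, 153 and 149 for Mcm5, 138 for Cdc6, 165 for Mcm7, which has a further motif 16 bases after its start, and 110, 106 and 47 for Mcm6. Uhrf1 has more than 1 annotated start, and the motif lies before one of them. The Orc1 stretch in part, and the Mcm7 stretch in full, lie in annotated GENCODE exons, counted for any gene on either strand, so they are shown at 30 bases.

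Windows of 37 of the 45 genes were used; those of Mcm4, Gins1, Gins2, Pole, Prim2, Rfc2, Ccne2 and Gmnn were not analysed here. An E2F motif on either strand was found in 15 of these 37 genes (40.5%), beside 2.12% of the 27025 genes of the table and 2.76% of its 17491 protein-coding genes. The 15 were Mcm3, Mcm5, Mcm6, Mcm7, Orc1, Cdc6, Cdt1, Pola1, Pold1, Lig1, Rfc3, Dnmt1, Uhrf1, Cdk2 and E2f2. Among other replication genes, a list described further below, 13 of 41 with a window held a motif (31.7%), so the motif was not particular to the 45. Of the mitosis genes with a window, 4.76% held it. The median GC content of the windows of the 37 genes was 61.3%, beside 52.7% for all windows, so base composition differed too. The median fold range between libraries was 6.56 for the 15 genes with a motif and 5.43 for the 22 with a window but no motif, and the ranges overlapped widely (1.73 to 45.9 and 1.11 to 22.2). A match describes the letters and shows neither binding nor activity.

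All 10 origin licensing genes were called variable, all were highest in replicate 1, and each was at least 2-fold above every other library there. Mcm6, a subunit of the ring helicase (ENSMUSG00000026355.11, chr1:128331590-128359664, minus strand), was the most abundant of them at 117.9, 13.7, 27.74 and 19.26 TPM in replicates 1 to 4. Its fold range was 8.39, and replicate 1 lay 3.93-fold above replicate 3, the next library. In scaled counts all 6 ring subunits kept the order of replicates 1, 3, 4 and 2, although Mcm4 and Mcm7 were lowest in replicate 4 on TPM. Mcm5 had the widest spread of the ring, 62.06, 3.24, 12.68 and 4.36 TPM with a 20.1-fold range, and Mcm4 the narrowest, 6.34-fold. Summed over Mcm2 to Mcm7, the ring stood at 396.3, 46.71, 90.72 and 54.77 TPM. Mcm6 was the highest subunit in every library, and the highest subunit exceeded the lowest by 3.02 to 4.66 times, so unequal subunit levels were seen in each library.

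Orc1, the origin recognition subunit that is known to be made and destroyed with the cell cycle (ENSMUSG00000028587.18, chr4:108579423-108614833, plus strand), had the lowest mean level and the widest spread. Its level was 3.27 TPM in replicate 1 and 0.06, 0.57 and 0.37 TPM in replicates 2 to 4. These rest on 144, 3, 39 and 19 counts. The ratio of replicate 1 to replicate 2 was 52.7 on the scaled counts, with an exact 95% counting interval from 17.7 to 259, and the fold range with a prior count of 0.5 was 45.9. It was 10.2 without replicate 2, 9.62 without replicate 1 and 19 in a second quantification of the same reads. The size of this ratio is therefore poorly fixed, although replicate 1 stood apart from all others.

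Cdc6, the loader ATPase, stood at 6.27, 0.47, 1.47 and 2.22 TPM, with a 10.9-fold range in scaled counts that was 4.51-fold without replicate 2. Cdt1, the loader that geminin inhibits, stood at 42.04, 9.61, 10.83 and 11.69 TPM, so its 3 lower libraries were close together. Gmnn, which encodes geminin, had the narrowest spread of the licensing genes at 3.64-fold, with 49.62, 18.06, 23.08 and 13.1 TPM. Geminin transcripts exceeded Cdt1 transcripts per length in every library, by 1.12 to 2.13 times.

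The other subunits of the origin recognition complex stood at higher and steadier levels than Orc1; they were chosen for mention after their values were seen, as were the partner subunits below. Orc3, Orc4 and Orc5 were not called variable, with fold ranges of 1.16, 1.64 and 1.20 and mean levels of 19.38, 22.2 and 11.89 TPM. Orc2 was called at 2.04-fold and Orc6 at 4.74-fold, both highest in replicate 1.

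All 4 helicase activation genes were called variable, were highest in replicate 1 and kept the order of replicates 1, 3, 4 and 2 in scaled counts. Cdc45, which joins the ring to make the active helicase, stood at 11.99, 1.15, 3.09 and 1.02 TPM, an 11.1-fold range in scaled counts. Gins1, a GINS subunit, stood at 13.01, 1.17, 4.45 and 1.68 TPM, a 10.5-fold range. Mcm10, which helps to open the helicase, stood at 10.14, 1.53, 3.94 and 1.83 TPM, a 6.65-fold range.

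Gins2, another GINS subunit, had the narrowest spread of this role, 2.95-fold in scaled counts, and stood at 23.23, 4.85, 7.67 and 5.9 TPM. Its level in replicate 1 included 9.61 TPM of noncoding transcripts, so coding transcripts made up 58.6% of it there and 69.7% to 100% elsewhere. Of the remaining GINS subunits, Gins3 was called at 2.62-fold around a mean of 0.66 TPM, and Gins4 was not called at 1.5-fold around 19.42 TPM.

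**Figure D2:**
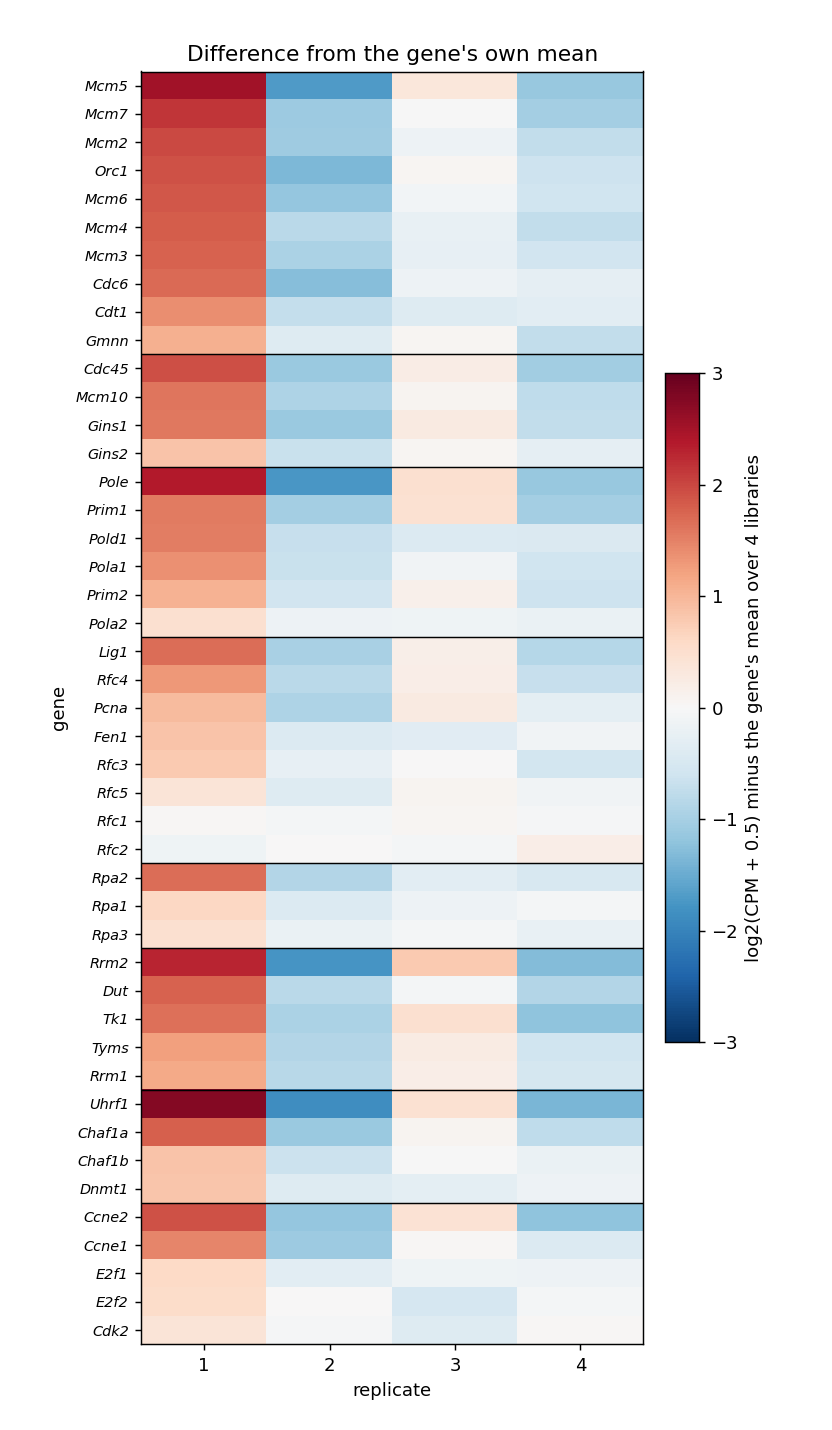
Difference of each library from the gene's own mean over 4 libraries, in log2(CPM + 0.5) with effective library sizes, for the 45 genes by role. Red is above and blue below the mean; the column of replicate 1 is red for nearly all genes, replicate 3 is near 0 (median 0.03) and replicates 2 and 4 are blue (medians -0.83 and -0.60).

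Of 6 polymerase and primase genes, 5 were called variable, and all 6 were highest in replicate 1. Pole, the catalytic subunit of the leading strand polymerase epsilon (chr5:110286306-110337474, plus strand), had the widest spread at 26-fold: 9.07, 0.34, 2.74 and 0.76 TPM. Both of its lower libraries lay below 1 TPM, and the range was 14.5-fold without replicate 2. Pola2, the accessory subunit of polymerase alpha, had the highest mean of the role and was not called variable. It stood at 14.1, 9.01, 9 and 7.47 TPM, a 1.63-fold range in scaled counts with replicate 1 on top.

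Its catalytic partner Pola1 was lower and spread more widely, at 10.19, 2.31, 3.27 and 2.25 TPM with a 4.30-fold range. Prim1, the catalytic primase subunit, ranged 7.44-fold, Pold1, the catalytic subunit of polymerase delta, 4.94-fold, and Prim2, the large primase subunit, 3.36-fold. The partner subunits of polymerases delta and epsilon were split in the same way. Pold2, Pole2 and Pole4 were called variable at 3.61-fold, 4.85-fold and 2.69-fold, while Pold3, Pold4 and Pole3 were not, at 1.47-fold, 1.47-fold and 1.70-fold. Pold3, Pold4 and Pole3 also had mean levels of 20.08, 31.33 and 20.49 TPM, above the 7.237 TPM of Pold1 and the 3.228 TPM of Pole.

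The clamp, loader and strand joining role was the most mixed, with 5 of 8 genes called variable and 6 highest in replicate 1. Pcna, the sliding clamp (ENSMUSG00000027342.14, chr2:132249162-132253314, minus strand), was by far the most abundant of the 45 genes and ranked 347 of 22028 protein-coding genes by mean level. It stood at 652.6, 174.3, 376.8 and 252.1 TPM, or 364 ± 209.7 TPM (SD, n = 4), with a 3.72-fold range that was 2.40-fold without replicate 2. Even its lowest library exceeded the highest library of each of the other 44 of the 45. Its processed pseudogene Pcna-ps2, which can share reads with it, had a mean of 4.725 TPM.

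The 5 loader subunits did not move together. Rfc1, the large subunit, had the narrowest spread of all 45 genes: 21.9, 21.35, 23.93 and 22.6 TPM, a 1.11-fold range. Rfc2, a small subunit (ENSMUSG00000023104.9, chr5:134581366-134601805, plus strand), stood at 45.39, 53.25, 44.02 and 42.88 TPM, a 1.24-fold range, and was the only one of the 45 with its lowest scaled count in replicate 1. Rfc5 was not called either, at 13.03, 7.03, 8.99 and 10.52 TPM and 1.74-fold. Rfc3 and Rfc4 were called variable at 2.71-fold and 5.33-fold and were highest in replicate 1. The highest subunit exceeded the lowest by 3.48 times in replicate 1 and by 8.14 to 21.6 times in the other libraries. The highest was Rfc2 in every library, and most of its level was assigned to noncoding models. On coding transcripts alone, Rfc1 exceeded Rfc2 in every library, at 21.36 to 23.93 TPM against 7.83 to 10.47 TPM. These ratios therefore do not describe the balance of coding messages.

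Lig1, the ligase that joins Okazaki fragments, had the widest spread of the role at 6.56-fold: 28.66, 4.94, 12.49 and 4.97 TPM. Fen1, the flap nuclease that trims those fragments, was called at 2.42-fold, and its 3 lower libraries ranged only from 12.63 to 14.45 TPM.

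Among the subunits of the single-strand binding protein RPA, Rpa2 alone spread widely. It stood at 21.66, 3.04, 4.64 and 3.92 TPM, a 6.68-fold range, with replicate 1 at 4.25 times the next library. Rpa1, the large subunit, stood at 62.66, 27.89, 30.08 and 30.57 TPM and passed the threshold narrowly at 2.07-fold. Rpa3, the small subunit, stood at 16.64, 9.61, 10.67 and 9.36 TPM and was not called at 1.72-fold. All 3 were highest in replicate 1, and none was called variable without that library.

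All 5 nucleotide supply genes were called variable and highest in replicate 1, and 4 of them were at least 2-fold above every other library there. Rrm2, the small subunit of ribonucleotide reductase that is made in S phase (chr12:24708241-24714146, plus strand), stood at 24.47, 1.28, 8.06 and 1.51 TPM, a 22.2-fold range that was 14.6-fold without replicate 2. Rrm1, the large subunit, varied less, at 45.57, 10.04, 27.69 and 14.24 TPM and 3.99-fold. Rrm1 therefore exceeded Rrm2 by 1.86 times in replicate 1 and 3.44 times in replicate 3, but by 7.84 and 9.43 times in replicates 2 and 4.

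Tyms, thymidylate synthase, stood at 13.03, 1.61, 6.48 and 3.51 TPM, a 5.52-fold range (3.50-fold in the second quantification). Tk1, the cytosolic thymidine kinase, stood at 22.81, 2.71, 9.11 and 2.48 TPM, an 8.94-fold range. Dut, which removes dUTP, stood at 19.53, 2.93, 4.82 and 2.57 TPM, a 7.91-fold range. The enzymes outside S-phase supply behaved differently. Rrm2b, the p53-responsive small subunit of ribonucleotide reductase, was not called variable at 6.15, 5.23, 4.72 and 3.92 TPM. Samhd1, which degrades deoxynucleotides and is known to be abundant in resting macrophages, stood at 160, 411.2, 346.6 and 426.6 TPM, a 2.53-fold range with its lowest value in replicate 1.

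All 4 methylation and chromatin assembly genes were called variable and highest in replicate 1. Uhrf1, which brings the maintenance methyltransferase to newly copied DNA (ENSMUSG00000001228.14, chr17:56303321-56323486, plus strand), stood at 35.25, 1.16, 7.05 and 1.73 TPM, a 29.1-fold range. Dnmt1, that methyltransferase, varied far less: 60.93, 25.54, 25.48 and 27.73 TPM, a 2.32-fold range whose lower 3 libraries lay within 1.17-fold of each other. The subunits of the chromatin assembly factor CAF-1 differed likewise. Chaf1a stood at 11.38, 0.95, 2.24 and 1.75 TPM, an 8.50-fold range, and Chaf1b at 19.27, 7.76, 10.26 and 9.5 TPM, a 2.93-fold range.

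Of the 5 S-phase entry genes, the cyclins spread widely and their kinase and E2F1 did not. Ccne1, cyclin E1, stood at 7.09, 0.82, 2.72 and 1.46 TPM, an 8.35-fold range that was 4.44-fold without replicate 2. Ccne2, cyclin E2, stood at 8.55, 0.67, 3.23 and 0.58 TPM, a 12-fold range. Cdk2, the kinase that both cyclins activate, stood at 18.36, 12.91, 9.27 and 12.8 TPM and was not called at 1.73-fold.

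E2f1, an activating E2F factor (ENSMUSG00000027490.17, chr2:154559407-154569892, minus strand), stood at 20.98, 10.65, 11.54 and 11.25 TPM. Its fold range of 1.91 missed the threshold and was 2.11 in a second quantification of the same reads. E2f2, a related activator, stood at 2.15, 1.36, 0.86 and 1.21 TPM and was called at 2.29-fold. It was the only called gene of the role whose lowest library was replicate 3.

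**Figure D3:**
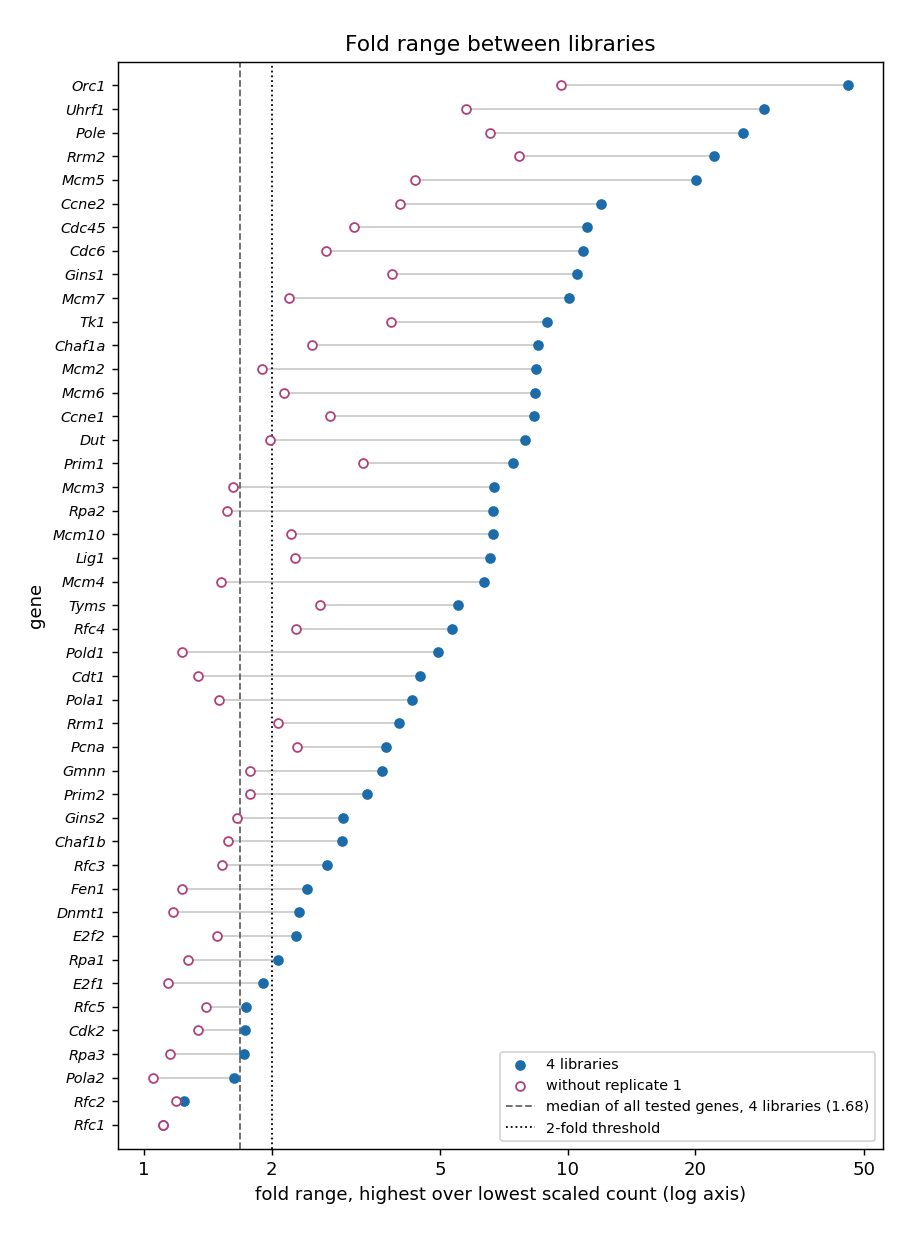
Fold range between libraries (highest over lowest scaled count, log axis) of each replication gene over 4 libraries (filled) and without replicate 1 (open). The dashed line is the median of all genes tested, 1.68, and the dotted line the 2-fold threshold; most filled points lie right of both lines, and 21 genes were called without replicate 1.

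At the threshold, E2f1 lay just below 2-fold at 1.91 and Rpa1 just above at 2.07. The 7 genes not called variable were Pola2, Rfc1, Rfc2, Rfc5, Rpa3, Cdk2 and E2f1. The 7 that fell below 1 TPM in at least 1 library were Orc1, Cdc6, Pole, Ccne1, Ccne2, E2f2 and Chaf1a; none was below 1 TPM in all 4. The remaining 38 stayed at or above 1 TPM in every library. In the order of mean levels, from Pcna at 364 TPM to Orc1 at 1.067 TPM, the ranges of neighbours overlapped in 43 of 44 pairs. Apart from Pcna, neighbours in this order were thus not separated by their ranges, which replicate 1 widened for most genes. Compared within each library, genes further apart could keep their order: Mcm6 exceeded Mcm7 by 2.73 to 4.66 times.

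Transcript models showed where gene totals hid a wider or narrower spread. For E2f1, the spread sat in 1 of its coding transcripts. E2f1-202, whose first exon is chr2:154569489-154569892 and which encodes 430 residues, stood at 13.33, 1.71, 2.55 and 1.64 TPM. E2f1-201, whose first exon of 654 bases reaches into the next intron (chr2:154569067-154569720) and which encodes 385 residues, stood at 7.64, 8.94, 8.99 and 9.61 TPM. Replicate 1 was thus the highest library for the longer protein form and the lowest for the shorter one. The second quantification gave 6.928, 0.593, 1.88 and 1.098 TPM for E2f1-202 and 7.334, 5.906, 8.146 and 8.01 TPM for E2f1-201. There E2f1-202 again spread and E2f1-201 stayed within a narrow band, with replicate 2 its lowest library.

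For Tk1, the coding transcript Tk1-201 stood at 21.7, 0.5, 7.23 and 1.11 TPM, a 36.3-fold range on TPM with 0.1 added. Its other models, all with a retained intron, summed to 1.12, 2.21, 1.88 and 1.38 TPM. Coding transcripts therefore made up 95.1% of the gene in replicate 1, 79.4% in replicate 3, 44.6% in replicate 4 and 18.5% in replicate 2, and the gene total understated the spread of the coding message.

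For Rfc2, most of the level was assigned to noncoding models. The coding transcript Rfc2-201 stood at 7.99, 7.9, 7.83 and 10.47 TPM, while the retained-intron models Rfc2-204 and Rfc2-205 stood at 20.81 to 27.56 TPM and 10.99 to 15.38 TPM. Coding transcripts made up 14.8% to 24.4% of the gene. None of these 3 models was clearly higher in replicate 1, unlike the totals of Rfc3 and Rfc4. The last exon of Rfc2-201 overlaps Lat2, a gene on the opposite strand with a mean of 170.9 TPM, and without strand information their reads there cannot be told apart.

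**Figure D4:**
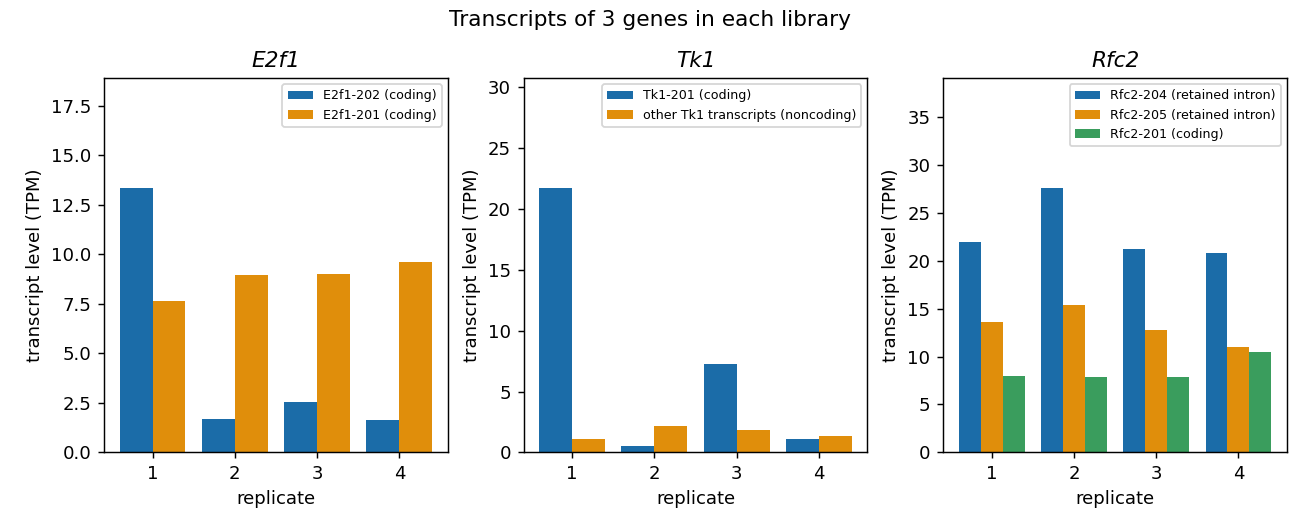
Transcript levels in TPM in each of the 4 libraries for E2f1, Tk1 and Rfc2, with 1 bar per transcript and library and no error bars. E2f1-202 and Tk1-201 stand high in replicate 1, while E2f1-201, the noncoding Tk1 transcripts and the Rfc2 models have no such peak.

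Counting coding transcripts alone, an analysis chosen after seeing the data, left 43 genes highest in replicate 1 and gave a median fold range of 5.32, beside 5.71 for gene TPM on the same scale. In 8 genes at least 25% of the level came from noncoding models. These include Tyms, whose coding share was 11.4% to 31.1%. Exons of 15 genes overlap another gene, 14 of them on the opposite strand. Examples with an abundant partner are Rfc4 with Eif4a2 (107 TPM), Rfc5 with Wsb2 (94.8 TPM) and Fen1 with Tmem258 (100.4 TPM). The strand setting is not given in the sources used here, so values of these genes are uncertain where the partner is abundant.

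Other replication genes, a list of 49 not among the 45, showed the same direction with a smaller spread. Of these, 28 were called variable, beside 32.9% of all genes tested, and 43 were highest in replicate 1, beside 35.8%. Their median fold range was 2.53, beside 1.68. Clspn, the fork adaptor claspin, stood at 8.81, 0.46, 3.02 and 0.74 TPM, a 21.6-fold range, and Hells, a chromatin remodeller, at 13.14, 0.99, 1.96 and 0.92 TPM, 15.4-fold. Ticrr, an origin firing factor, ranged 17.8-fold, Dctd, which makes dUMP, 17.3-fold, and Dscc1, of an alternative clamp loader, 14.5-fold. All 5 were highest in replicate 1. Of the most abundant, Top1, topoisomerase I, was called at 2.18-fold around 111.2 TPM, while the histone chaperone genes Ssrp1 and Supt16 and the chaperone subunit Rbbp4 were not called, at 1.57-fold, 1.51-fold and 1.34-fold.

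Of 31 tested genes of the E2F, RB and cyclin network, 17 were called variable, beside 32.9% of all genes tested. In 18, replicate 1 was highest, beside 35.8%, and the median fold range was 2.13, beside 1.68. Ccnd1, cyclin D1, which links growth signals to RB, stood at 278.2, 9.88, 32.49 and 13.75 TPM, a 27.4-fold range. Ccna2, the S-phase cyclin A2, ranged 12.8-fold and the repressor E2f7 11-fold, both highest in replicate 1, as was the growth factor-responsive Myc at 72.45, 22.29, 44.47 and 25.33 TPM. Of 6 tested genes for inhibitors of the cyclin kinases, 4 were lowest in replicate 1, beside 4119 of the 12626 genes tested. With so few genes, this count sets them little apart. Cdkn1a, encoding p21, stood at 875.1, 1397, 649.1 and 1259 TPM, with its lowest level in replicate 3. Cdkn1c, encoding p57, stood at 12.36, 21.21, 29.83 and 88.18 TPM. Outside the naming rule and chosen after their values were seen, Cdkn1b, encoding p27, was called at 8.87, 25.96, 13.01 and 30.1 TPM, and Cdkn2d was called at 2.29-fold, both lowest in replicate 1, as was Cdkn2c, which was not called. Cdkn2b, encoding p15, was called at 4.91-fold around 0.56 TPM and was highest in replicate 1, on 24 counts there and 5 in replicate 2. Cdk4, the kinase of cyclin D, was not called at 1.49-fold around 75.37 TPM.

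Of 23 checkpoint and repair genes, 15 were called variable, beside 32.9% of all genes tested. Replicate 1 was highest for 19, beside 35.8%, and the median fold range was 2.65, beside 1.68. Among the widest spreads, all with replicate 1 highest, were those of the following genes. Exo1, a mismatch repair nuclease, ranged 40.9-fold, Ung, which removes uracil, 26.5-fold, Chek1, the fork checkpoint kinase, 23.7-fold, and Pclaf, a PCNA partner, 19.9-fold. Chek2, Rad17 and Rad9a were not called, at 1.5-fold, 1.26-fold and 1.51-fold, nor was Trp53, encoding p53, at 1.93-fold. Mdm2, its inhibitor, was called at 2.02-fold around 264.7 TPM.

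The 25 mitosis genes also spread widely but differed from the replication genes in the balance of replicates 1 and 3. Of these, 23 were called variable, beside 32.9% of all genes tested. Their median fold range was 6.35, beside 1.68 for all genes tested and 5.52 for the replication genes. In 22 of them replicate 1 was at least 2-fold above replicate 2, beside 11.5%. Replicate 3 was highest for 13, beside 2538 of 12626 genes, and replicate 1 for 10, beside 35.8%. Their median difference from the gene's own mean was 0.74 in replicate 1, -0.89 in replicate 2, 0.81 in replicate 3 and -0.80 in replicate 4 on the log2 scale, while that of the 45 replication genes was 1.47, -0.83, 0.03 and -0.60. The median ratio of replicate 1 to replicate 3 was 2.73 for the replication genes and 0.939 for the mitosis genes, beside 1.03 for all genes tested. Single mitosis genes went both ways, 11 higher in replicate 1 and 14 higher in replicate 3, with ratios from 0.171 for Cenpa to 3.94 for Mybl2, while 43 of the 45 replication genes were higher in replicate 1. No test of the difference between the lists was made.

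Among the 3 most abundant mitosis genes, Cdk1, the mitotic kinase, stood at 75.13, 16.46, 39.93 and 21.88 TPM. Mki67, a marker of cycling cells, was not called at 38.3, 49.2, 34.61 and 27.73 TPM. Cenpa, the centromeric histone, stood at 8.4, 95.7, 45.76 and 67.41 TPM, with replicate 1 lowest, the reverse of most replication genes. Mki67 and Cenpa were exceptions in their list. Of the 25 mitosis genes, 23 were higher in replicate 1 than in replicate 2, beside 6410 of 12626 genes tested. The ratio was 0.749 for Mki67 and 0.0885 for Cenpa.

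**Figure D5:**
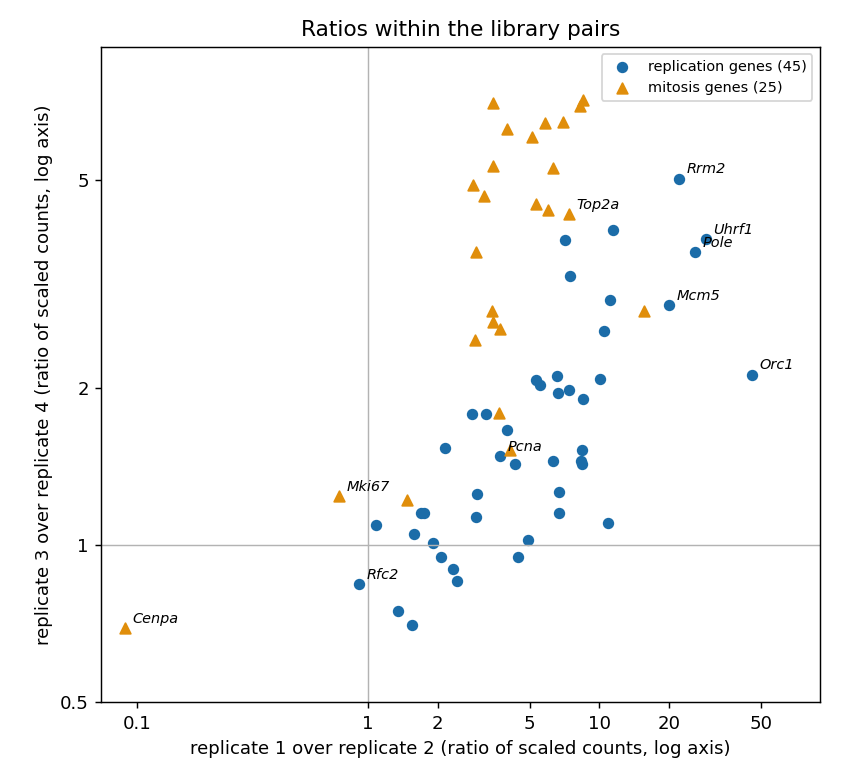
Ratio of scaled counts of replicate 1 to replicate 2 (x axis) and of replicate 3 to replicate 4 (y axis), both log axes, for 45 replication genes (circles) and 25 mitosis genes (triangles). The replication genes extend along the x axis (median ratios 5.52 and 1.48), and the mitosis genes stand higher on the y axis (median ratios 3.73 and 4.38).

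Replicates 1 and 2 are listed with 6 read files apiece and replicates 3 and 4 with 4, a recorded technical difference. In a contrast of these pairs with edgeR's quasi-likelihood test, 0 of the 45 genes had an adjusted p below 0.05, and 0 had an unadjusted p below 0.05, beside 0% of 12701 genes called. DESeq2 also called 0, with 3 below an unadjusted 0.05. The values of 43 genes were nevertheless lower in the pair with 4 files, by a median log2 difference of -1.05 (from -2.04 for Uhrf1 to 0.13 for Rfc2). The share of all genes lower in that pair was not counted. Replicate 2, in the pair with 6 files, was itself the lowest library for 33 of the 45, beside 25.4% of genes tested. The direction between pairs thus came mainly from the high values of replicate 1. Libraries also differed within the pairs. Replicate 1 was above replicate 2 for 44 of the 45 genes, beside 6410 of the 12626 genes tested between libraries. Replicate 3 was above replicate 4 for 38, beside 5747 of 12626. Such differences limit what the contrast can find: Uhrf1, at -2.04, had an unadjusted p of 0.191 in the edgeR test. The 0 calls therefore do not show that the pairs were alike. Whether the number of read files plays a part was not tested beyond this contrast. With replicate 2 left out, 8 were called, beside 0.735% of all genes; the lone library of that arm is then assumed to vary like the others.

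Macrophage markers were abundant: all 10 exceeded 1 TPM in every library, and their sum ran from 19916 TPM in replicate 1 to 35537 TPM in replicate 2. The sum mostly reflects 1 marker with a mean of 19685 TPM. The median marker stood at 386.6, 439.1, 384.8 and 468.2 TPM in replicates 1 to 4. Of the 10, 3 were called variable, close to the 32.9% of all genes tested. Csf1r, the M-CSF receptor, was called at 526.3, 1155, 624.7 and 852.4 TPM, lowest in replicate 1. Blood cell progenitor genes summed to 5.56, 3.74, 6.01 and 3.6 TPM, with 6 of 10 below 1 TPM in every library. Neutrophil precursor genes summed to 232, 132.4, 769.7 and 83.05 TPM, with 5 of 6 tested highest in replicate 3; Ly6g was at 0 in replicates 1, 2 and 4. Erythroid genes summed to 3.71 to 5.49 TPM over 7 matched genes, with Hbb-bs at 0 throughout. Lymphoid genes summed to 1.51 to 3.16 TPM and stromal genes to 1.14 to 2.64 TPM. The part of other cell types in the spread of the replication genes was not tested.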

How the data were processed

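Polyadenylated RNA of 4 libraries of 1 group was quantified on mm10 with GENCODE M21, per the file lists that the authors deposited. The choice of aligner, counter and strandedness is not given in the sources used here. Each gene table gives the authors' expected counts, which need not be whole, and TPM as deposited, scaled over every row. The deposited transcript tables hold TPM and the percent of each gene's level per transcript. A second transcript table, with estimated counts and TPM deposited by the authors, was summed to genes and is called the second quantification. Of 81881 rows, 26345 named no gene and held 0.103% to 0.118% of counts; they were left out.

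Expected counts were rounded and scaled with edgeR 4.0.16 (TMM, R 4.3.3). The chi-square test had 3 degrees of freedom and Benjamini-Hochberg adjustment over all genes tested at 0.05, and fold ranges used a prior count of 0.5. DESeq2 1.42.0 was an alternative. limma 3.58.1 was loaded by edgeR, and NumPy 2.4.6, SciPy 1.17.1, pandas 2.3.3 and matplotlib 3.10.9 ran in Python 3.11.15. Both tests were tested on simulated data with genes changed 4-fold. The chi-square call found 200 of 200 among 12626 with 2 false calls, and the edgeR contrast 200 of 200 among 11042 with 15. This recovery does not show that the contrast finds such changes in the real libraries, which differed within pairs. There the median ratio of replicate 1 to replicate 2 was 5.52 for the replication genes. Uhrf1, with a log2 difference of -2.04, had an unadjusted p of 0.191 in edgeR's quasi-likelihood test. The members, the lists of other replication, E2F and cyclin, checkpoint and mitosis genes, and the marker lists were chosen with earlier results of these data known. Named by rule were, in each role, the genes with the highest mean and the widest and narrowest spread (every gene in roles of up to 5), any gene not called or below 1 TPM in a library, and in other lists the 5 (mitosis: 3) most abundant, the 5 widest among those called, and Samhd1, Rrm2b, Ccnd1 and Cdkn1a. Total gene counts were 26917324 to 39438414. Alternatives covered scaling, count filters, the fold threshold, the second quantification and leaving out each library. Some genes that this rule or the lists would name are not reported here.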

Additional observations from a re-analysis of the deposited data

Results flagged for a closer look

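In 18 of the 45 genes, 1 library lay far from the other 3, by Dixon's test for 4 values. Chance flags about 1 in 20 groups, and 8.85% of the 12626 genes tested were flagged. The outlying library was replicate 1, on the high side, in all 18, beside 5.35% of the genes tested. Its level was 53.35 TPM for Mcm2, 78.53 for Mcm3, 45.48 for Mcm4, 62.06 for Mcm5, 117.9 for Mcm6 and 39.03 for Mcm7, so the entire helicase ring was flagged. Among the other licensing and helicase genes, the level was 42.04 TPM for Cdt1, 3.27 for Orc1 and 23.23 for Gins2. Among synthesis genes it was 10.19 TPM for Pola1, 17.58 for Pold1, 31.42 for Fen1, 62.66 for Rpa1, 21.66 for Rpa2 and 19.53 for Dut. For Dnmt1 it was 60.93 TPM, for Chaf1a 11.38 and for E2f1 20.98. The cause was not tested.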

How the results depend on the processing

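Under the scaling, count filter and second quantification alternatives, 38 to 39 of the 45 genes were called variable, beside 24.4% to 36% of all genes tested. In these, 43 or 44 were highest in replicate 1, beside 35.8% of all genes under the main setting. Leaving out each library in turn gave 21 to 38 called and 11 to 28 other replication genes called, beside 16% to 29.1% of all genes tested. The median fold range of the 45 was then 1.90 to 5.52, beside 1.38 to 1.59 for all genes tested. The lowest value of each came without replicate 1, where 17 single genes lost their call. There the fold range of 40 genes moved by over 1.5 times. Without replicate 2 it moved as far for 6 genes, Pcna, Rrm2, Cdc6, Pole, Ccne1 and Orc1, and in the second quantification for Tyms and Orc1. With no fold threshold, 49 other replication genes were called, beside 88.6% of all genes tested. By number of read files, 0 to 8 genes were called over the leave-outs, and 8 came without replicate 2. At a threshold of 5 TPM, 20 genes exceeded it in every library, against 38 at 1 TPM. Rpa1 lost its call without replicate 2 (1.68-fold) and E2f2 without replicate 3 (1.61-fold). Coding transcripts alone, chosen after seeing the data, gave 43 genes highest in replicate 1. No paired analysis was possible because there is 1 group. The cause of these changes was not tested. At these depths, genes with few counts, such as Orc1 with 3 in replicate 2, have ratios of low precision.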
